A study of Mus musculus with 6 samples.

Results

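The genes of mitochondrial ribosomal proteins were followed in macrophages from healing skin wounds of young and aged mice. They were chosen by symbol alone (Mrpl or Mrps and then a digit), which took 83 of the 15168 genes in the count table, 52 with an Mrpl and 31 with an Mrps symbol. Of these members, 77 encode proteins of the mitochondrial ribosome, 5 are processed pseudogenes (Mrpl23-ps1, Mrpl27-ps, Mrpl48-ps, Mrps36-ps1 and Mrps36-ps2), and Mrps36 encodes a protein of the 2-oxoglutarate dehydrogenase complex that has kept a ribosomal symbol. All samples came from wild-type female C57BL6/J mice with full-thickness wounds on the back, and macrophages positive for F4/80 and CD64 were sorted on Day 3 after wounding. The young group held 3 samples from mice of 12 weeks and the aged group 3 samples from mice of 24 months, and the samples of each group carry the set letters A, B and C. No unwounded skin and no agent entered the comparison, and the cDNA was amplified from low amounts of RNA. The labels do not say whether a sample is 1 mouse or a pool, or that the samples of a group come from separate animals, so the p-values measure the spread between these samples, which may be technical.

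Mitochondrial ribosomes translate the few mRNAs that the mitochondrial genome encodes, all of them for core subunits of the respiratory chain and ATP synthase. Their rRNAs come from the mitochondrial genome, but their proteins are made in the cytosol from nuclear genes and are then imported. The small subunit (Mrps) binds and decodes the mRNA, and the large subunit (Mrpl) joins the amino acids and lets the new chain out through a tunnel next to the inner membrane. Some of the proteins have counterparts in the ribosomes of bacteria, and others exist only in mitochondria.

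Each sample had between 15270103 and 17927483 counts on genes, and 1 count corresponded to between 0.0553 and 0.0701 CPM (counts scaled to the TMM-adjusted size of the library). The 4 genes of the sort, Ptprc, Itgam, Fcgr1 and Adgre1, were present in every sample, at 172 CPM or more, but their levels differed with age. Itgam was higher (log2 fold change 0.99, edgeR adjusted p = 0.00735, under 0.05 in all 6 fits that left out a sample), and Adgre1, which encodes F4/80, was lower (-0.69, edgeR adjusted p = 0.0292, under 0.05 in 2 of the 6 fits, not without young B, young C, aged A or aged C). Of 4 further macrophage markers, Csf1r, Cd68, Mertk and Lyz2, 0 passed in edgeR and 2 had an unadjusted p under 0.05, both lower. In limma-voom 2 were lower and in DESeq2 1. Among all tested genes 16.5% were lower at an unadjusted p under 0.05, 14.4% in limma-voom and 8.59% in DESeq2. The 4 markers had a median log2 fold change of -0.54, and their summed level, mostly of Lyz2, was 26712, 29222 and 41642 CPM in young A, B and C and 23747, 18542 and 20361 CPM in aged A, B and C. Markers of other cells and of cycling cells also differed between the samples. Of 15 markers of cycling cells, 11 were lower and 1 (Mki67) was higher in the aged samples, against 7.97% and 9.73% of all tested genes. Without young C 1 was lower, without aged C 3 and without young A 7, when 0.548%, 1.58% and 9.29% of all tested genes were lower. Mki67 passed in 0 of the 6 fits. The summed level of the 15 markers was 335, 192 and 293 CPM in young A, B and C and 149, 164 and 141 CPM in aged A, B and C. The summed level of the 9 neutrophil markers tested ran from 520 to 931 CPM in young, against from 668 to 1252 CPM in aged samples. Of these 9, 2 were higher, against 9.73% of all tested genes, and the median log2 fold change of the 9 was 0.38. The 2 were Retnlg (log2 fold change 0.85, edgeR adjusted p = 0.0393) and Cxcr2 (1.13, edgeR adjusted p = 0.0340), which passed in 1 and 2 of the 6 fits. The summed level of 3 erythroid markers ran from 106 to 339 CPM in young, against from 31.0 to 107 CPM in aged samples. In aged B, Krt14 of keratinocytes was at 80.2 CPM, against 0.865 CPM or less in every other sample, and 4 fibroblast markers summed to 111 CPM, against 38.3 CPM or less elsewhere. The part of these markers and cells in the results below was not tested, and in sorted bulk samples fewer cells of a type and less RNA per cell cannot be told apart.

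Transcripts of 28 of the 76 tested mitochondrial ribosomal proteins passed as lower in the aged wound macrophages, 10 of the small and 18 of the large subunit. Of the 81 members with enough counts for a test, 30 (37.0%) were lower in aged samples and 0 were higher (edgeR quasi-likelihood test, Benjamini-Hochberg adjusted p under 0.05 over all 11878 genes tested). Among all tested genes, 7.97% were lower and 9.73% higher by the same rule. At an unadjusted p under 0.05, 58 members were lower (16.5% of all tested genes) and 0 were higher, and limma-voom and DESeq2 also called 0 members higher and called 55 and 32 lower (14.4% and 8.59% of all genes each tested). The median log2 fold change of aged over young was -0.55 over the 81 members, with quartiles of -0.76 and -0.39, and -0.02 over all tested genes. The value was below 0 in 78 of the 81 members, against 51.2% of all tested genes. Most of the differences were moderate in size, and 7 members were lower by more than 2-fold with an adjusted p under 0.05 (4.2% of all tested genes). The 28 mitoribosomal genes that passed had aged means between 34.9% and 68.5% of the young means. The number of calls depended on the samples used, as it was 15 without young B, 2 without young C, 17 without aged B and 7 without aged C, when 2.71%, 0.548%, 4.98% and 1.58% of all tested genes were lower. The median moved less and lay between -0.61 and -0.49 when the samples were left out 1 at a time.

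**Figure D1:**
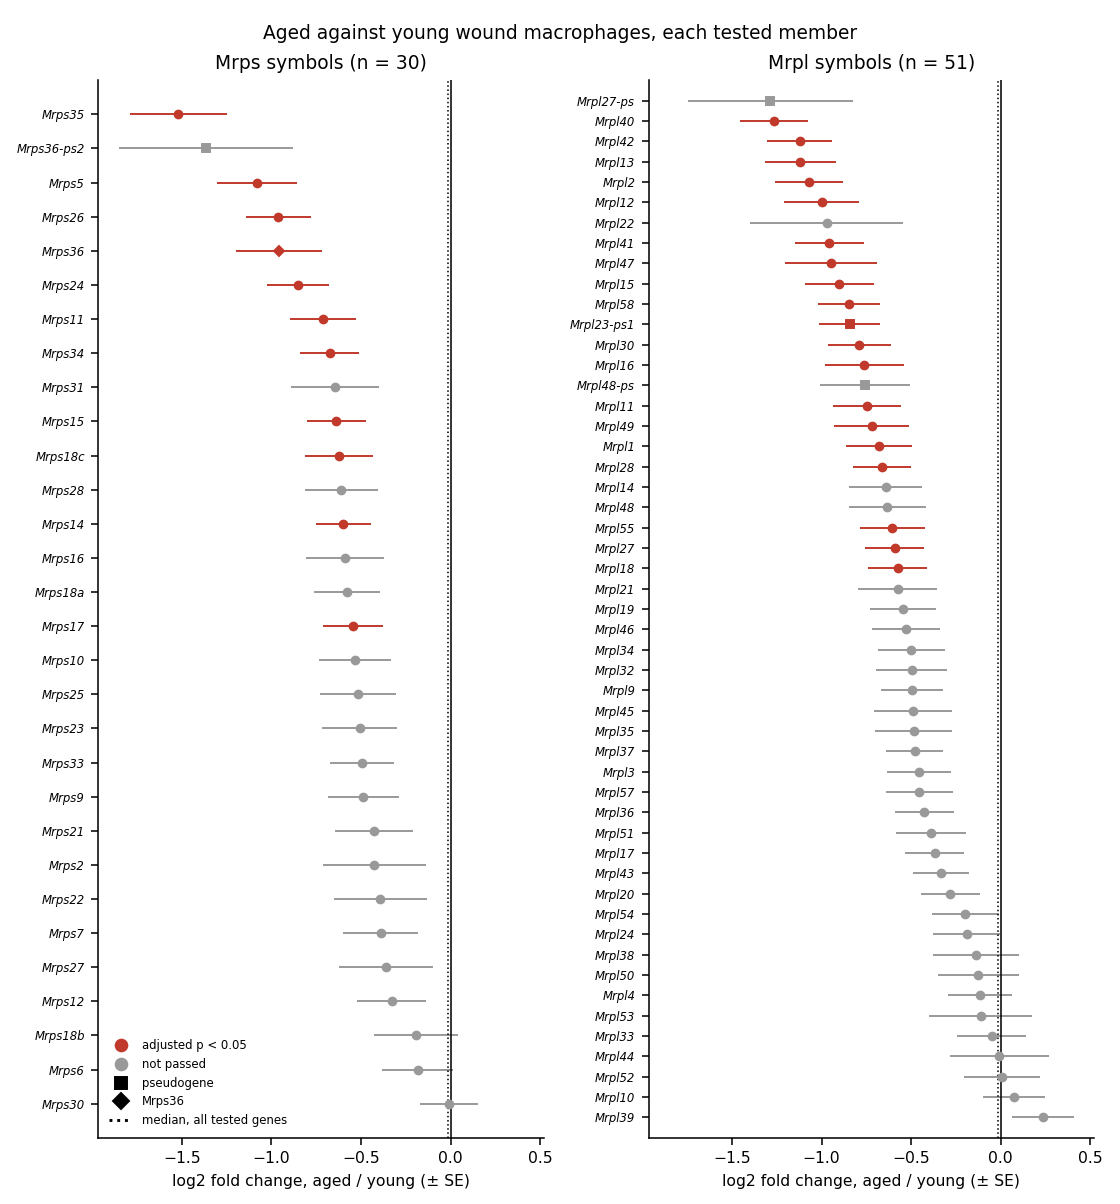
Log2 fold change (aged over young, ± standard error, 3 samples per group) of each tested member, with Mrps symbols on the left and Mrpl symbols on the right, red where the adjusted p was under 0.05. Nearly all points lie left of 0 and of the dotted median of all tested genes (-0.02), and only Mrpl52, Mrpl10 and Mrpl39 lie to the right of 0.

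In 57 of the 81 tested members every aged sample was below every young sample, against 19% of all tested genes, and in 0 members every aged sample was above. All 30 members that passed were among the 57. Among the 73 members with a mean of at least 10 CPM, 27 were lower, against 9.7% of the 4528 tested genes between 10 CPM and the highest member. The summed level of all members was 2110, 2083 and 2476 CPM in young A, B and C and 1525, 1606 and 1534 CPM in aged A, B and C. The aged samples lay close together and below all young samples, and young C was the highest of the 6. The sum fell by 30.1%, from 2223 ± 219 to 1555 ± 44.2 CPM (SD, n = 3).

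**Figure D2:**
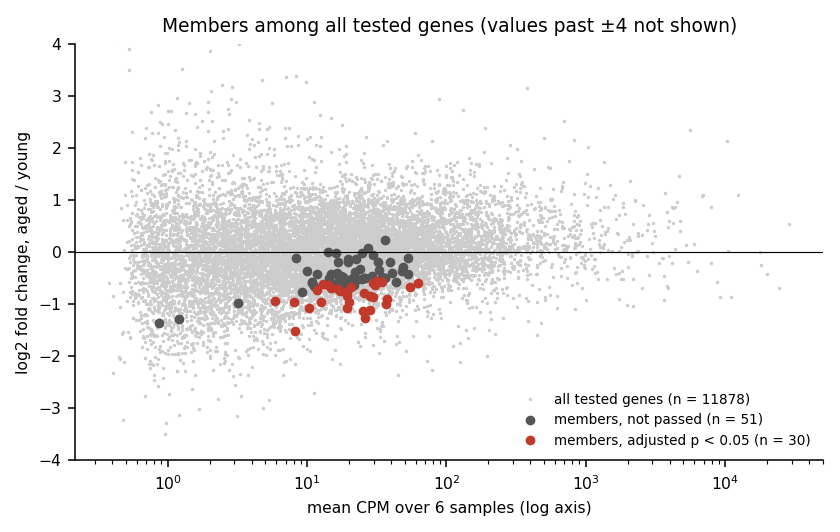
Log2 fold change (aged over young) against the mean level over the 6 samples in CPM (log axis) for all 11878 tested genes in grey and the 81 tested members as large points. The members lie in the middle of the range of levels, and the 30 that passed (red) all lie below 0.

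Promoters of 5 members are shown to set those that fell beside one that did not. They come from RefSeq (GRCm38.p6, 250 bases before to 50 after the start, 69 of the 83 members matched), and capitals mark a match on either strand to the NRF1 motif (GCGC, any 2 bases, GCGC), CCGGAAGT (the motif of ETS factors and GABP) or AAGATGGC (a YY1 motif). Mrps26 (chr2:130563507-130563806, plus strand), which fell, holds 2 overlapping NRF1 matches and an ETS match on the opposite strand. Mrpl12 (chr11:120484387-120484686, plus strand), which also fell, holds an NRF1 match. Mrpl42 (chr10:95501900-95502199, minus strand) fell and holds a YY1 match. Mrpl40 (chr16:18876588-18876887, minus strand), with the smallest adjusted p of all members, holds no match in this window. Mrpl39 (chr16:84735195-84735494, minus strand), with the highest log2 fold change, holds an NRF1 match. RefSeq starts can differ from the gene coordinates given below. The window of Mrpl39 lies within the gene span given there, and that of Mrpl40 lies mostly within its own.
Mrps26: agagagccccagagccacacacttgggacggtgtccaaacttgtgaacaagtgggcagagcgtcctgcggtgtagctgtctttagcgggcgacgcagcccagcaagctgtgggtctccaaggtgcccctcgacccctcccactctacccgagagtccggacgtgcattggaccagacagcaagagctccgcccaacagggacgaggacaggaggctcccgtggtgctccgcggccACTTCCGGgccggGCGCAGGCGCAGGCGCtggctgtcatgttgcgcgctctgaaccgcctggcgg
Mrpl12: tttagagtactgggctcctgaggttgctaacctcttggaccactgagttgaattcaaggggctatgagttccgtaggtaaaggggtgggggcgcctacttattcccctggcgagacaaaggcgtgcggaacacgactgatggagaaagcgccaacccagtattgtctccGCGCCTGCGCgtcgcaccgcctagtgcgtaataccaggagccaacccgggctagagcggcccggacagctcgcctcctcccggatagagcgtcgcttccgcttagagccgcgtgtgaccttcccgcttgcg
Mrpl42: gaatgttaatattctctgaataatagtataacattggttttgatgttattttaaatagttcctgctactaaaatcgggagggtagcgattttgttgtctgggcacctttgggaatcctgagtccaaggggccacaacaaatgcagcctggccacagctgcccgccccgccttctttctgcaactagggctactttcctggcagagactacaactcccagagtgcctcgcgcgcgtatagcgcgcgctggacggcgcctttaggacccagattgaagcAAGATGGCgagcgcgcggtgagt
Mrpl40: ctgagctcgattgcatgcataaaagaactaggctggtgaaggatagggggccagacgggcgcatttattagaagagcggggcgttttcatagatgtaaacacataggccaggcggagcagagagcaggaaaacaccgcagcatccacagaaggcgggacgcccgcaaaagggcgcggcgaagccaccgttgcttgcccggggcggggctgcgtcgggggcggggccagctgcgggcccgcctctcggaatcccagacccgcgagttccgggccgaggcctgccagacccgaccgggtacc
Mrpl39: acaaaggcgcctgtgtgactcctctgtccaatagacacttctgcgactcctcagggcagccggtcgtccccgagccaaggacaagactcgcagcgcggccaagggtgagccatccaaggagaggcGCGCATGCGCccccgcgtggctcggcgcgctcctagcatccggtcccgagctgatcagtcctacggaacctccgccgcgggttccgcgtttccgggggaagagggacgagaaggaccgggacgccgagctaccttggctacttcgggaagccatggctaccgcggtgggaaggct

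The NRF1 motif was found in 18.7% of the 75 promoters of members, 13.7% of the promoters of tested genes and 6.23% of all promoters in the table. For CCGGAAGT the shares were 16%, 8.57% and 3.89%, and for AAGATGGC they were 16%, 4.77% and 2.75%. For CACGTG, the E-box that Myc and its partners bind, they were 9.33% (7 promoters of 5 members), 10.3% and 7.15%, and for TATAAA 6.67%, 7.25% and 13.6%. Of the 25 matched members that were lower, 4 held the NRF1 motif, 4 the ETS motif and 4 the YY1 motif, against 10, 8 and 8 of the 43 tested members that did not pass. A match says only that the letters are there, and the shares were not tested.

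Among proteins found only in mitochondria, Mrpl40 and Mrpl42 of the large subunit had the firmest differences. Mrpl40 (chr16:18872018-18876862, protein-coding, minus strand, mm10) was measured at 30.1, 37.2 and 43.6 CPM in young A, B and C and at 16.7, 14.6 and 14.8 CPM in aged A, B and C. The groups were far apart, with the lowest young sample well above the highest aged one. The mean fell from 37.0 ± 6.76 to 15.4 ± 1.20 CPM (log2 fold change -1.27, standard error [SE] 0.19, edgeR adjusted p = 0.00436). Mrpl42 (chr10:95480805-95501940, minus strand) was at 34.1, 29.1 and 39.7 CPM in young, against 14.9, 15.4 and 16.9 CPM in aged samples. The 3 aged samples were nearly alike and below all young samples, and differed by -1.12 on the log2 scale (SE 0.18, edgeR adjusted p = 0.00607). These were the 2 members with an adjusted p under 0.05 in all 6 fits that left out a sample. Mrpl41 (chr2:24974117-24975098, minus strand) was at 18.2, 15.5 and 16.0 CPM in young, against 9.18, 7.96 and 8.46 CPM in aged samples, again without overlap (log2 fold change -0.96, SE 0.19, edgeR adjusted p = 0.0128). Mrpl58, which encodes a peptidyl-tRNA hydrolase that sits in the ribosome and frees stalled chains, was at 22.2, 26.5 and 25.4 CPM in young, against 13.5, 14.8 and 12.9 CPM in aged samples (log2 fold change -0.85, SE 0.17, edgeR adjusted p = 0.0138). Without young C the adjusted p was 0.0630 for Mrpl41 and 0.0762 for Mrpl58, and neither was under 0.05 without aged C.

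Peptide bonds are formed in the large subunit, and many of its proteins have bacterial counterparts. Mrpl2 (uL2m, chr17:46646229-46650139, plus strand), beside the catalytic site, was measured at 22.3, 28.6 and 28.3 CPM in young, against 14.4, 11.3 and 11.9 CPM in aged samples. Every aged sample was below every young sample, and the mean fell from 26.4 ± 3.54 to 12.5 ± 1.60 CPM (log2 fold change -1.07, SE 0.19, edgeR adjusted p = 0.00846). Mrpl13 (uL13m, chr15:55534094-55557748, minus strand) was at 30.7, 36.1 and 48.9 CPM in young, against 18, 17.5 and 17.9 CPM in aged samples. Young C was the highest and the aged samples hardly differed, and the value was -1.12 on the log2 scale (SE 0.20, edgeR adjusted p = 0.00846). Without young C the adjusted p was 0.0568 for Mrpl2 and 0.0538 for Mrpl13, and both were under 0.05 in the other 5 fits. Mrpl16 and Mrpl27, whose bacterial counterparts reach towards the catalytic site, also fell, with log2 fold changes of -0.76 and -0.59 (edgeR adjusted p = 0.0391 and 0.0347). Both passed in 2 of the 6 fits, not without young B, young C or aged C, Mrpl16 also not without aged A and Mrpl27 also not without aged B. Mrpl3, which also has a bacterial counterpart, did not pass (log2 fold change -0.46, edgeR adjusted p = 0.0980). All its aged samples (22.8 to 25.5 CPM) were nevertheless below its young samples (30.0 to 40.4 CPM).

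The stalk that calls translation factors to the large subunit was uneven. Mrpl12 (bL12m, chr11:120484613-120489065, plus strand), the stalk protein that contacts the factors, was at 48.9, 36.9 and 60.5 CPM in young, against 21.7, 28.1 and 23.3 CPM in aged samples. The groups did not overlap, although the young samples were spread widely, and the mean fell from 48.8 ± 11.8 to 24.4 ± 3.32 CPM (log2 fold change -1.0, SE 0.21, edgeR adjusted p = 0.0145). Without young C the adjusted p was 0.0787, and it was not under 0.05 without aged C either. Mrpl11, at the base of the stalk, fell from 21.7 ± 0.515 to 12.9 ± 2.33 CPM (log2 fold change -0.75, SE 0.19, edgeR adjusted p = 0.0267), and passed in 2 of the 6 fits, not without young B, young C, aged B or aged C. Mrpl10 (uL10m, chr11:97041560-97049213, plus strand), which anchors Mrpl12, was at 24.2, 26.8 and 28.5 CPM in young, against 25.9, 32.4 and 25.4 CPM in aged samples. Its groups overlapped (log2 fold change 0.07, SE 0.17, edgeR adjusted p = 0.795), and the sign turned without aged B (-0.04) and in limma-voom (-0.0071).

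Around the exit of the peptide tunnel, Mrpl47 (uL29m) passed, from 7.71 ± 1.37 to 3.99 ± 0.594 CPM (log2 fold change -0.95, SE 0.26, edgeR adjusted p = 0.0327). It passed in 2 of the 6 fits, not without young B, young C, aged A or aged C. Mrpl22 was measured at low levels, 3.37, 4.40 and 4.95 CPM in young, against 0.911, 3.31 and 2.22 CPM in aged samples, and did not pass despite a value of -0.97 on the log2 scale (SE 0.43, edgeR adjusted p = 0.136). Mrpl45, which holds the ribosome at the inner membrane, had a log2 fold change of -0.49 with overlapping groups (edgeR adjusted p = 0.141). Mrpl24 gave -0.19 (edgeR adjusted p = 0.502). Mrpl17 did not pass (log2 fold change -0.37, edgeR adjusted p = 0.138), although its groups did not overlap. Another protein of this ring, Mrpl23, could not be tested, as described with its pseudogene below.

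The members of the large subunit with the highest log2 fold changes were Mrpl39, Mrpl10 and Mrpl52. Mrpl39 (chr16:84717576-84735742, minus strand), a protein found only in mitochondria, was at 30.5, 32.3 and 37.0 CPM in young, against 35.6, 36.0 and 45.7 CPM in aged samples. Aged C was the highest, but young C lay above the other aged samples, so the groups overlapped (log2 fold change 0.23, SE 0.17, edgeR adjusted p = 0.364). Mrpl52 was at 14.1 ± 2.74 CPM in young, against 14.1 ± 1.57 CPM in aged samples (log2 fold change 0.01, SE 0.21, edgeR adjusted p = 0.986), and its sign turned without young B (-0.14) and without aged C (-0.07).

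**Figure D3:**
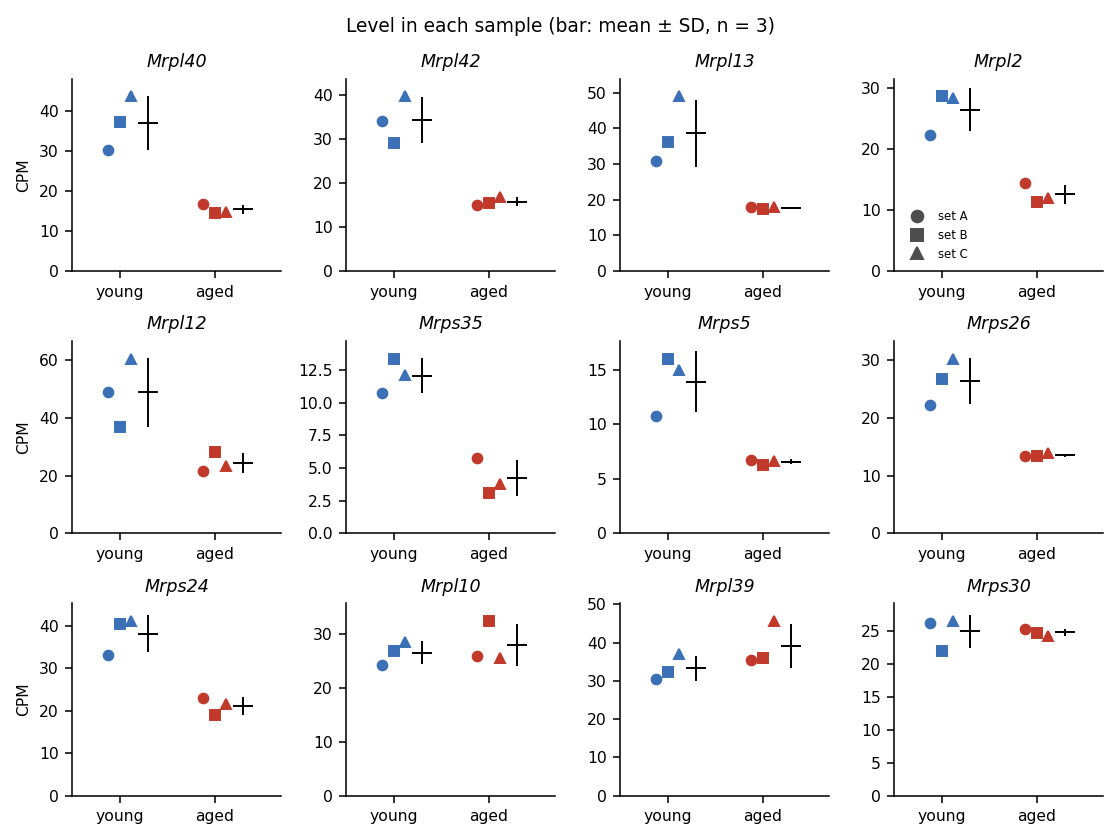
Level in CPM of 12 members in each young (blue) and aged (red) sample, with the mean ± SD of 3 samples beside them and symbols for sets A, B and C. In Mrpl40, Mrpl42, Mrpl13, Mrpl2, Mrpl12, Mrps35, Mrps5, Mrps26 and Mrps24 all aged samples are below all young samples, while those of Mrpl10, Mrpl39 and Mrps30 overlap.

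In the small subunit the lowest log2 fold change was in Mrps35, a protein found only in mitochondria. Mrps35 (chr6:147042764-147073991, protein-coding, plus strand) was at 10.7, 13.4 and 12.1 CPM in young, against 5.74, 3.12 and 3.77 CPM in aged samples. All aged samples were far below the young ones, and the mean fell from 12.1 ± 1.32 to 4.21 ± 1.37 CPM (log2 fold change -1.52, SE 0.27, edgeR adjusted p = 0.00846). Mrps26 (chr2:130563742-130568695, plus strand), likewise found only in mitochondria, was at 22.2, 26.7 and 30.3 CPM in young, against 13.4, 13.4 and 13.9 CPM in aged samples. Its aged samples were almost equal and the difference was -0.96 on the log2 scale (SE 0.18, edgeR adjusted p = 0.0107). Without young C the adjusted p was 0.0528 for Mrps35 and 0.0704 for Mrps26, and both passed in the other 5 fits.

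Several proteins of the small subunit that handle the mRNA have bacterial counterparts. Mrps5 (uS5m, chr2:127587222-127606829, plus strand) and Mrps24 (uS3m, chr11:5703983-5715680, minus strand) line the channel by which the mRNA enters. Mrps5 was at 10.8, 16.0 and 14.9 CPM in young, against 6.73, 6.31 and 6.67 CPM in aged samples, with no overlap (log2 fold change -1.08, SE 0.22, edgeR adjusted p = 0.0142). Mrps24 was at 33.1, 40.4 and 41.2 CPM in young, against 23.0, 18.9 and 21.6 CPM in aged samples, also with no overlap (log2 fold change -0.85, SE 0.17, edgeR adjusted p = 0.0130). Neither passed without young C (adjusted p = 0.0762 for both in edgeR) or without aged C. On the side where the mRNA leaves, Mrps11 fell from 20.8 ± 0.858 to 12.7 ± 1.79 CPM (log2 fold change -0.71, edgeR adjusted p = 0.0279), and Mrps7, its neighbour, did not pass (log2 fold change -0.39, edgeR adjusted p = 0.211). Mrps12, which checks the pairing of codon and tRNA, did not pass either (log2 fold change -0.33, edgeR adjusted p = 0.250). Mrps14, the member with the highest mean CPM, fell from 75.7 ± 5.22 to 50.0 ± 4.21 CPM (log2 fold change -0.60, edgeR adjusted p = 0.0267). Mrps11 and Mrps14 each passed in 2 of the 6 fits, not without young B, young C, aged B or aged C.

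Of the 3 paralogs of bacterial S18, which occupy different places in the ribosome, Mrps18c fell (log2 fold change -0.62, SE 0.19, edgeR adjusted p = 0.0462), but it passed in 0 of the 6 fits that left out a sample, with adjusted p-values of 0.0516 to 0.167. Mrps18a was close to it (log2 fold change -0.58, SE 0.18, edgeR adjusted p = 0.0523). Mrps18b overlapped between the groups (log2 fold change -0.19, SE 0.24, edgeR adjusted p = 0.596), and its sign turned without aged A (0.01). Mrps6 gave -0.18 (edgeR adjusted p = 0.541), and with trends on length and GC content removed 0.02. Mrps30 (chr13:118378381-118387252, minus strand), which sits in the large subunit despite its symbol, was level between the groups, at 26.3, 22.0 and 26.6 CPM in young, against 25.4, 24.8 and 24.3 CPM in aged samples (log2 fold change -0.01, SE 0.16, edgeR adjusted p = 0.981). Its sign depended on the samples and the scaling used, with values of -0.08 to 0.04 in the 6 fits. Mrps18a also belongs to the large subunit by structure.

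The other mitoribosomal genes that passed were Mrpl15, Mrpl30, Mrpl49, Mrpl1, Mrpl28, Mrpl55 and Mrpl18 of the large and Mrps34, Mrps15 and Mrps17 of the small subunit, which brings the number to 28 with log2 fold changes of -1.52 to -0.55. Of these 10 genes, Mrpl15 passed in 4 of the 6 fits, Mrpl28 in 3, Mrpl30, Mrps34 and Mrps15 in 2, Mrpl49, Mrpl1 and Mrpl18 in 1, and Mrpl55 and Mrps17 in 0. All 10 had an adjusted p above 0.05 without young C and without aged C. Of the 30 members that passed, 11 did not pass with trends on length and GC content removed, namely Mrpl11, Mrpl16, Mrpl18, Mrpl27, Mrpl28, Mrpl49, Mrpl55, Mrps11, Mrps15, Mrps17 and Mrps18c (edgeR adjusted p of 0.0522 to 0.137). A further 24 mitoribosomal genes did not pass although their groups did not overlap, with log2 fold changes of -0.97 to -0.33 and edgeR adjusted p-values of 0.0523 to 0.211. Besides Mrpl3, Mrpl17, Mrpl22, Mrps7 and Mrps18a, they were Mrpl9, Mrpl14, Mrpl19, Mrpl21, Mrpl32, Mrpl34, Mrpl36, Mrpl37, Mrpl43, Mrpl46, Mrpl48, Mrpl57, Mrps9, Mrps10, Mrps16, Mrps25, Mrps28, Mrps31 and Mrps33. In the last 24 the groups overlapped, with log2 fold changes of -0.51 to 0.23. Besides those already described, they were Mrpl4, Mrpl20, Mrpl33, Mrpl35, Mrpl38, Mrpl44, Mrpl50, Mrpl51, Mrpl53 and Mrpl54 and Mrps2, Mrps21, Mrps22, Mrps23 and Mrps27. Mrps36, the member of another complex, fell from 10.6 ± 1.12 to 5.46 ± 1.20 CPM (log2 fold change -0.96, SE 0.24, edgeR adjusted p = 0.0257), and its adjusted p was not under 0.05 without young B, young C, aged A or aged B.

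The subunits were set side by side, with no test of a difference between them. By symbol, 11 of 30 tested Mrps genes (36.7%) and 19 of 51 tested Mrpl genes (37.3%) were lower, against 7.97% of all tested genes. Their median log2 fold changes were -0.56 and -0.55. Without young C the counts were 0 and 2, without aged C 3 and 4, without young B 6 and 9, without aged B 5 and 12, and without aged A 7 and 13 (4.26% of all tested genes). Summed over the Mrps symbols, the level was 713, 684 and 815 CPM in young, against 489, 536 and 489 CPM in aged samples, a mean that fell by 31.5%. Over the Mrpl symbols it was 1398, 1399 and 1661 CPM in young, against 1036, 1069 and 1045 CPM in aged samples, a mean that fell by 29.3%. No aged sample reached the level of a young sample in either sum. Sorted by where the protein sits and without Mrps36 and the pseudogenes, 10 of 26 small subunit genes and 18 of 50 large subunit genes were lower, with medians of -0.54 and -0.51.

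**Figure D4:**
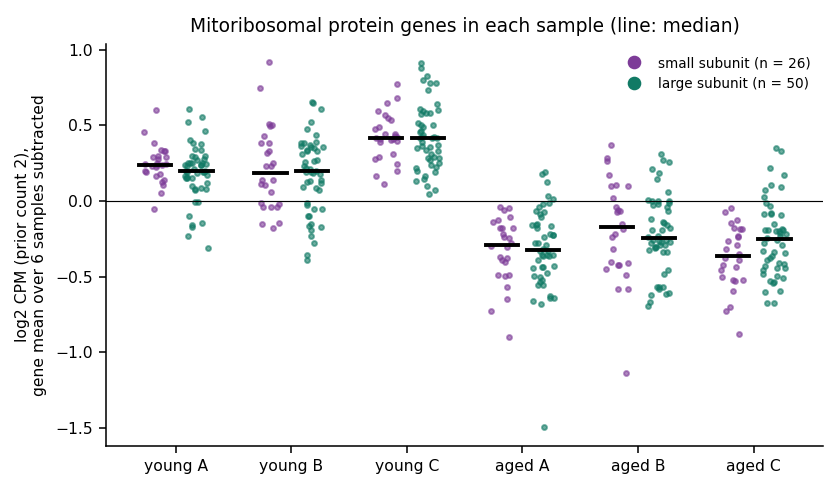
Log2 CPM (prior count 2) of the 76 tested mitoribosomal protein genes in each sample after subtracting each gene's mean over the 6 samples, for the small (purple) and large (green) subunit by structure, with medians as black lines. The medians of both subunits lie above 0 in all young samples and below 0 in all aged samples, and young C is the highest at 0.42 for both.

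Proteins with a bacterial counterpart and those found only in mitochondria were also set side by side. Of 45 tested genes with a bacterial counterpart, 20 (44.4%) were lower and 35 did not overlap between the groups, with a median log2 fold change of -0.58. Of 31 genes classed as found only in mitochondria, 8 (25.8%) were lower and 17 did not overlap, with a median of -0.49. This class holds Mrps18a (mL66) and Mrps18b (mS40) by their structural names, although they are paralogs of bacterial S18. Among all tested genes 7.97% were lower, and 19% had every aged sample below every young sample. The genes found only in mitochondria held both the lowest value, Mrps35 at -1.52, and the highest, Mrpl39 at 0.23. Whether these classes differ was not tested.

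Levels per length (CPM per kb of the median protein-coding transcript) differed widely among proteins that the ribosome holds in equal number. Among tested Mrpl genes, pseudogenes left out, they were highest for Mrpl20 (99.4 CPM per kb) and Mrpl36 (74.3) and lowest for Mrpl47 (1.74) and Mrpl19 (3.76). Among tested Mrps genes, again without pseudogenes, they were highest for Mrps18a (57.8) and Mrps17 (37.5) and lowest for Mrps25 (3.40) and Mrps35 (3.62). Of these, Mrps17, Mrpl47 and Mrps35 passed the test, and Mrpl20 overlapped between the groups, at 53.9 ± 6.38 CPM in young, against 44.3 ± 4.04 CPM in aged samples. The transcripts of a gene differ in length, so these levels are approximate.

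Members of 3 families, those of Mrpl23, Mrpl48 and Mrps36, share near-identical sequence with a processed pseudogene, so their counts are uncertain. Mrpl27-ps was not compared with Mrpl27, and pseudogenes under other symbols were not searched for. Mrpl23-ps1 (chr2:74591330-74591909, minus strand) is identical to the Mrpl23 transcript at 100% of 540 aligned bases. Mrpl23-ps1 was measured at 39.3, 30.6 and 39.5 CPM in young, against 20.5, 20.3 and 20.3 CPM in aged samples, while Mrpl23 itself, which encodes the protein, had 0.387, 0.528 and 0.727 CPM in young, against 0.140, 0.255 and 0.124 CPM in aged samples and was not tested. The counts of the pair were lower in all aged samples (Mrpl23-ps1, log2 fold change -0.84, SE 0.17, edgeR adjusted p = 0.0130), but not with an adjusted p under 0.05 without young C or without aged C, and the reads of the gene and the pseudogene cannot be told apart. Mrpl48-ps was identical to Mrpl48 at 98.11% of 636 bases and did not pass (log2 fold change -0.76, edgeR adjusted p = 0.0597), nor did Mrpl48 (-0.63, edgeR adjusted p = 0.0679). Mrps36-ps1 and Mrps36-ps2, at 99.35% and 99.03% identity to Mrps36, were at 1.39 CPM or less in every sample. Mrps36-ps1 was not tested, Mrps36-ps2 did not pass (edgeR adjusted p = 0.0766), and neither did Mrpl27-ps (edgeR adjusted p = 0.0778), at 0.446 to 2.16 CPM.

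Genes that work with the mitochondrial ribosome were compared next. Of 5 mitoribosomal proteins with other symbols, Dap3, Ptcd3, Chchd1, Aurkaip1 and Gadd45gip1, 0 passed in edgeR or DESeq2, and the median log2 fold change was -0.51. At an unadjusted p under 0.05, 3 were lower, against 16.5% of all tested genes, and limma-voom called 3 lower, against 14.4%. In 4 of the 5 every aged sample was below every young sample, against 19% of all tested genes. The lowest adjusted p among the 5 was that of Gadd45gip1, at 22.4, 17.1 and 19.9 CPM in young, against 13.0, 13.7 and 13.8 CPM in aged samples (log2 fold change -0.56, edgeR adjusted p = 0.0603). Of 29 factors that assemble the mitoribosome or modify its rRNA, 5 (17.2%) were lower and 0 higher, with a median of -0.31, against 7.97% lower and 9.73% higher among all tested genes. They were Rbfa, a maturation factor of the small subunit (-1.16, edgeR adjusted p = 0.0175), Mrm2, an rRNA methyltransferase (-1.80, edgeR adjusted p = 0.0314), the GTPases Gtpbp10 (-1.02, edgeR adjusted p = 0.0397) and Mtg1 (-0.90, edgeR adjusted p = 0.0438), which assemble the large subunit, and the pseudouridine synthase Rpusd3 (-1.44, edgeR adjusted p = 0.0464). Rbfa was the most abundant of them, at 33.9, 73.0 and 52.4 CPM in young, against 20.5, 26.0 and 24.9 CPM in aged samples. Mrm2 and Rpusd3 were measured at low levels, with means of 1.33 and 1.26 CPM over the 6 samples. Of 16 mitochondrial translation factors, Guf1 (-1.32, edgeR adjusted p = 0.0175), an elongation GTPase, and Mtrf1 (-1.53, edgeR adjusted p = 0.0189), a release factor, were lower (12.5%) and 0 were higher, with a median of -0.26. Without young B, young C or aged C, 0 genes of the assembly and translation factor lists passed. Of the assembly factors, 3 passed without young A, 1 without aged A, 2 without aged B and 2 with trends on length and GC content removed, and Gtpbp10 and Rpusd3 passed in 0 of the 6 fits that left out a sample.

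Of the 13 mRNAs of the mitochondrial genome 0 passed in edgeR, DESeq2 or limma-voom. At an unadjusted p under 0.05, 1 was lower, against 16.5% of all tested genes. The 13 had a median log2 fold change of -0.14 (0.07 with trends on length and GC content removed). The rRNAs of the mitoribosome gave 0.24 (mt-Rnr1) and 0.42 (mt-Rnr2), with overlapping groups (edgeR adjusted p = 0.582 and 0.272). Of 78 nuclear genes for subunits of the respiratory chain and ATP synthase, 14 (17.9%) were lower and 0 higher, with a median of -0.38, against 7.97% lower and 9.73% higher among all tested genes. In limma-voom 32 were lower, against 14.4% of all tested genes, and with the trends removed 3, against 5.83% of all tested genes. Among them, 10 of 37 complex I genes were lower (median -0.47), such as Ndufc2, which fell from 59.0 ± 4.42 to 32.2 ± 1.37 CPM (log2 fold change -0.87, edgeR adjusted p = 0.00827, 0.0555 without young C). Cytosolic ribosomal proteins gave a median of -0.26, with 2 of 82 genes (2.44%) lower, Rps27l (-0.80) and Rpl11 (-1.01). The median of their mean levels was 16.1 CPM, against 20.8 CPM for the members. Whether pseudogenes take up reads of these genes was not tested, so their counts are uncertain. For this list 13 genes were lower in limma-voom, against 14.4% of all tested genes, and the median was -0.08 with the trends removed. Every aged sample was below every young sample in 28 of the 37 complex I genes (75.7%), against 70.4% of the members. The same held for 44 of the 78 respiratory chain genes (56.4%) and 33 of the 82 cytosolic ribosomal genes (40.2%), against 19% of all tested genes. Whether these lists differ from the mitoribosomal genes was not tested. Without young C, 0 genes of the nuclear respiratory chain and cytosolic ribosome lists passed, and without young B, aged A, aged B or aged C between 1 and 6 of the 78 respiratory chain genes did.

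**Figure D5:**
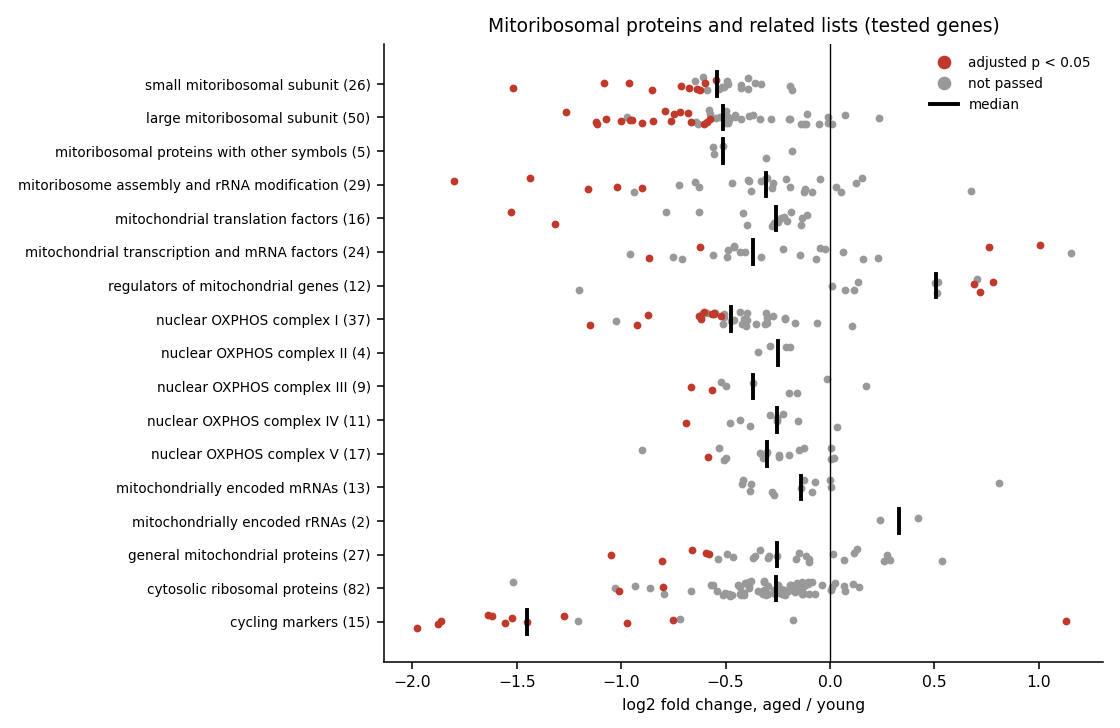
Log2 fold change (aged over young) of the tested genes of both mitoribosomal subunits and of related lists, with the number of genes in brackets, medians as black lines and genes with an adjusted p under 0.05 in red. The medians of the small (-0.54) and large (-0.51) subunit lie near those of mitoribosomal proteins with other symbols (-0.51) and of complex I genes (-0.47). Those of cytosolic ribosomal proteins (-0.26) and of mitochondrially encoded mRNAs (-0.14) are higher, and that of the cycling markers is -1.45.

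Among 24 tested factors of mitochondrial transcription and mRNA handling, Pnpt1 (-0.86), an RNA-degrading enzyme, and Hsd17b10 (-0.62), a subunit of mitochondrial RNase P, were lower, while Polg (0.76), the mitochondrial DNA polymerase, and Fastkd1 (1.01) were higher. These are shares of 8.33% in each direction, near the 7.97% and 9.73% of all tested genes. Among 27 general mitochondrial proteins 5 were lower and 0 higher, with a median of -0.25. The prohibitins Phb (-1.05) and Phb2 (-0.66), the cristae protein Chchd3 (-0.80), the import pore Tomm40 (-0.58) and the ADP/ATP carrier Slc25a4 (-0.59) were those that fell (edgeR adjusted p = 0.0115 to 0.0437). Regulators of mitochondrial genes had a median of 0.51 over 12 genes, with 3 higher and 0 lower. These were Myc, from 22.6 ± 6.66 to 38.8 ± 8.22 CPM (log2 fold change 0.78, edgeR adjusted p = 0.0458), the GABP subunit Gabpb1 (0.69, edgeR adjusted p = 0.0259) and Mxd1 (0.72, edgeR adjusted p = 0.0431), which competes with Myc for its partner Max. Without young C or aged C, 0 genes of these 3 lists passed, and without young B 1 general mitochondrial protein, 1 regulator and 0 transcription and mRNA factors did. Without aged B, 3 general mitochondrial proteins and 1 transcription and mRNA factor passed. Myc and Mxd1 each passed in 1 of the 6 fits.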

How the data were processed

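RNA of sorted Day 3 wound macrophages had been sequenced in 6 samples, 3 from each age. Reads were aligned by the authors to mm10 (STAR 2.7.3a) and quantified on transcripts in Partek, per the labels and the methods, and they deposited expected counts per gene without normalisation. Whether the counting used strand is not given in the sources used here. Genes in the deposited table have a summed expected count of 10 or more, and 30.7% to 34.0% of the values in a sample were not whole and were rounded. A second deposited table of the authors' own comparison (signal, fold changes and p-values) was not used.

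In R 4.3.3, edgeR 4.0.16 was run with TMM scaling and filterByExpr, comparing aged with young samples by the quasi-likelihood test over 11878 genes with Benjamini-Hochberg adjustment. The biological coefficient of variation was 0.239. A gene passed at an adjusted p under 0.05. The study added a change over 2-fold. Alternatives were DESeq2 1.42.0 (its test and its size factors), limma 3.58.1 (voom with sample weights), other filters, the set letter as a block, and fits without each sample. Removal of length and GC trends was added after seeing the data. The methods were tested on simulated data. The members and lists were chosen with earlier results of these data known. Values were given for the 12 members with the smallest adjusted p, the 3 highest and 3 lowest log2 fold changes of each subunit at 10 CPM or more, and the 2 highest and 2 lowest levels per length of each. From the related lists, genes that passed were named, with exceptions. Only Ndufc2 was named of the respiratory chain genes and only Mki67 of the cycling markers. Erythroid and T cell markers that passed were not named. Mrpl3, Mrpl11, Mrpl16, Mrpl17, Mrpl22, Mrpl24, Mrpl27, Mrpl45, Mrps7, Mrps11, Mrps12, Mrps14 and Mrps18c were described for their place in the ribosome, their level or their family, and were chosen after their values were seen, as were Gadd45gip1 and the mitochondrial rRNAs. Coordinates are those of the deposited table in mm10, with the last base of each gene as the end, and 82 of the 83 members lie where GENCODE M21 places them. Levels per length used its transcripts, promoter sequences are from RefSeq, and plots were made with matplotlib 3.10.9.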

Additional observations from a re-analysis of the deposited data

How the results depend on the processing

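With 3 samples per group, single samples decided many calls. The number of members lower in aged samples ran from 2 to 30 when each sample was left out (small subunit 0 to 9, large subunit 2 to 21). Among all tested genes 0.548% to 9.29% were lower in these 6 fits. The number of members was 55 in limma-voom (small 20, large 35) and 7 with the 2-fold rule. Of the 30 calls, 2 passed in all 6 such fits, 14 in 1 to 3 and 3 in 0, but all 30 kept their sign. All 30 also passed in DESeq2 and limma-voom, and 19 with length and GC trends removed. With these trends removed 21 members passed in all, and 5.83% of all tested genes were lower. The median log2 fold change of all members was -0.64 in limma-voom and -0.44 with the trends removed, and that of the small subunit -0.68 and -0.41. Other settings left the count of members lower between 27 and 32, when 5.33% to 9.18% of all tested genes were lower. The sign turned in at least 1 setting for 11 members near 0, Mrps18b (0.0134 with the trends removed, -0.40 to 0.0080 when each sample was left out), Mrps6 (0.0234 with the trends removed), Mrps30 (0.000417 with DESeq2 size factors, 0.00316 in DESeq2, -0.0839 to 0.0391 when each sample was left out), Mrpl52 (-0.0043 with at least 10 counts in every sample, -0.14 to 0.10 when each sample was left out), Mrpl10 (-0.0071 in limma-voom, -0.0352 to 0.14 when each sample was left out), Mrpl4 (0.0413 with the trends removed), Mrpl33 (0.11 with the trends removed, -0.15 to 0.10 when each sample was left out), Mrpl38 (-0.34 to 0.0302 when each sample was left out), Mrpl44 (0.00127 in DESeq2, 0.00105 in limma-voom, 0.14 with the trends removed, -0.17 to 0.26 when each sample was left out), Mrpl50 (-0.26 to 0.0644 when each sample was left out) and Mrpl53 (0.11 with the trends removed, -0.30 to 0.0951 when each sample was left out). The cause was not tested. The samples were not treated as paired by set letter, as the labels do not say whether a set shares a batch. Deviations from the group means correlated at 0.18, -0.02 and 0.11 for A, B and C, against -0.22 to 0.14 between unlike letters. These values cannot decide whether the sets are paired, as deviations within a group are tied to each other. With the letter as a replicate block 27 members were lower, against 7.68% of all tested genes, and Mrpl55, Mrps17 and Mrps18c did not pass. At 1 count of 0.0553 to 0.0701 CPM, depth limits Mrpl22, Mrpl27-ps, Mrps36-ps1 and Mrps36-ps2, and Mrm2 and Rpusd3 of the related lists.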

Other observations

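Many of the members share a start region with another gene. Of the 77 tested members with a unique gene in the annotation, 23 (29.9%) had a protein-coding neighbour on the opposite strand whose start lay within 1000 bases upstream, or overlapped by up to 200 bases, against 12.8% of 10467 tested protein-coding genes. Of the neighbours, 20 were tested, 2 were lower (Mitd1 beside Mrpl30 and Cyb5rl beside Mrpl37) and 2 were higher (Apba3 beside Mrpl54 and Ppp1r10 beside Mrps18b), with a median log2 fold change of -0.49. Among all tested genes 7.97% were lower and 9.73% higher. Hira, whose start lies 175 bases from that of Mrpl40, had a log2 fold change of -0.05 (edgeR adjusted p = 0.947), against -1.27 in Mrpl40. Hira was measured at a low level, with a mean of 1.39 CPM, against 26.2 CPM for Mrpl40, so depth limits its value. Ndufs6, a complex I gene that shares its start region with Mrpl36, gave -0.51 (edgeR adjusted p = 0.122), against -0.43 in Mrpl36. The neighbours named were chosen after their values were seen.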
